A study of Cricetulus griseus with 9 samples.

Results

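Transcripts of 6 genes of the ATF4 axis and of amino acid supply were followed in MI5-4 cells, a subline of Chinese hamster ovary (CHO) cells. They are the transcription factors Atf4 and Atf5, the phosphatase subunit Ppp1r15a, the enzymes ASNS and Psat1, and the amino acid transporter Slc7a5. The 6 were taken by symbol, ignoring case, from the 6753 genes of the deposited table, and all 6 were present. They had been selected on their measured differences between these same groups, so their levels and differences are given below as a description, with no test. RNA sequencing of mRNA libraries gave 9 libraries in 3 groups of 3. WTHK2 libraries came from MI5-4 cells labelled as expressing wild-type HK2 (hexokinase 2), LAC libraries from empty-vector cells given 10 mM sodium lactate for 24 h, and EV libraries from cells with the empty vector, described by the labels as hexokinase null. All groups share the MI5-4 background and a medium with 1000 mg/L glucose and fetal bovine serum. The labels do not say whether the WTHK2 cells are 1 clone, nor whether replicates were separate cultures, and the p-values below cover no more than the spread among the 3 libraries of a group.

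ATF4 is the main transcription factor of the integrated stress response. In that response, kinases that sense amino acid shortage, endoplasmic reticulum stress, heme shortage or viral RNA phosphorylate the initiation factor eIF2, which lowers general protein synthesis while upstream open reading frames allow more ATF4 protein to be made from existing mRNA. ATF4 then raises transcription of enzymes and transporters that bring amino acids into the cell or make them, and of a phosphatase subunit that reverses eIF2 phosphorylation. The transcript level of Atf4 is therefore no measure of its protein, and protein was not measured here. The RNA is from a whole culture, in which fewer cells of a kind and less RNA per cell cannot be told apart.

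Values are the deposited normalized CPM, in which a library's reads are divided by an effective library size. Those sizes, recovered from the steps between values, were 18050959 to 26238659 reads. Hk2 transcripts did not separate the group labelled WTHK2: they averaged 65.3 ± 1.33 CPM in WTHK2, 67.8 ± 2.92 in LAC and 67.3 ± 2.11 in EV (SD, n = 3 each), a log2 difference of -0.04 between WTHK2 and EV (SE 0.054, adjusted p = 0.522). Hk1 transcripts were also in the table in every library, at 285 ± 7.63 CPM in WTHK2, 302 ± 2.22 in LAC and 324 ± 7.09 in EV. Every direction given for WTHK2 therefore rests on the label. Of 6 fibroblast-type markers, 4 were in the table, with summed levels of 4286 to 4447 CPM in WTHK2, 3663 to 3753 in LAC and 3800 to 3889 in EV, while 0 of 6 leukocyte and 0 of 5 epithelial markers were. Relative to the mean of EV, the median of the 4 listed mitochondrially encoded transcripts was higher by 0.73, 0.45 and 0.40 on the log2 scale in WTHK2 replicates 1, 2 and 3, and by 0.80, 0.52 and 0.45 in LAC replicates 1, 2 and 3. Among 58 genes coding for very long proteins (over 2500 residues), a list written with this trend already known, 48 were called lower in WTHK2 and 50 in LAC against EV, and 0 higher in either, with median log2 differences of -0.28 and -0.30. Of all genes, 25.4% were called lower and 21.0% higher in WTHK2 against EV, and 27.1% and 22.4% in LAC against EV. None of the 6 genes is on the list of very long proteins, and the part of either trend in the differences below was not tested.

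In WTHK2 against EV, Atf4, Atf5, ASNS, Psat1 and Slc7a5 were lower and Ppp1r15a overlapped. In LAC against EV, Atf4 and Ppp1r15a were higher, Psat1 and Slc7a5 were lower, and Atf5 and ASNS overlapped. The 6 genes held from 438 reads (ASNS in WTHK2 replicate 1) to 8240 reads (Atf4) per library. The exact 95% Poisson interval for those 438 reads runs from 397.9 to 481 reads, or 22.05 to 26.65 CPM, and covers counting error only.

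**Figure D1:**
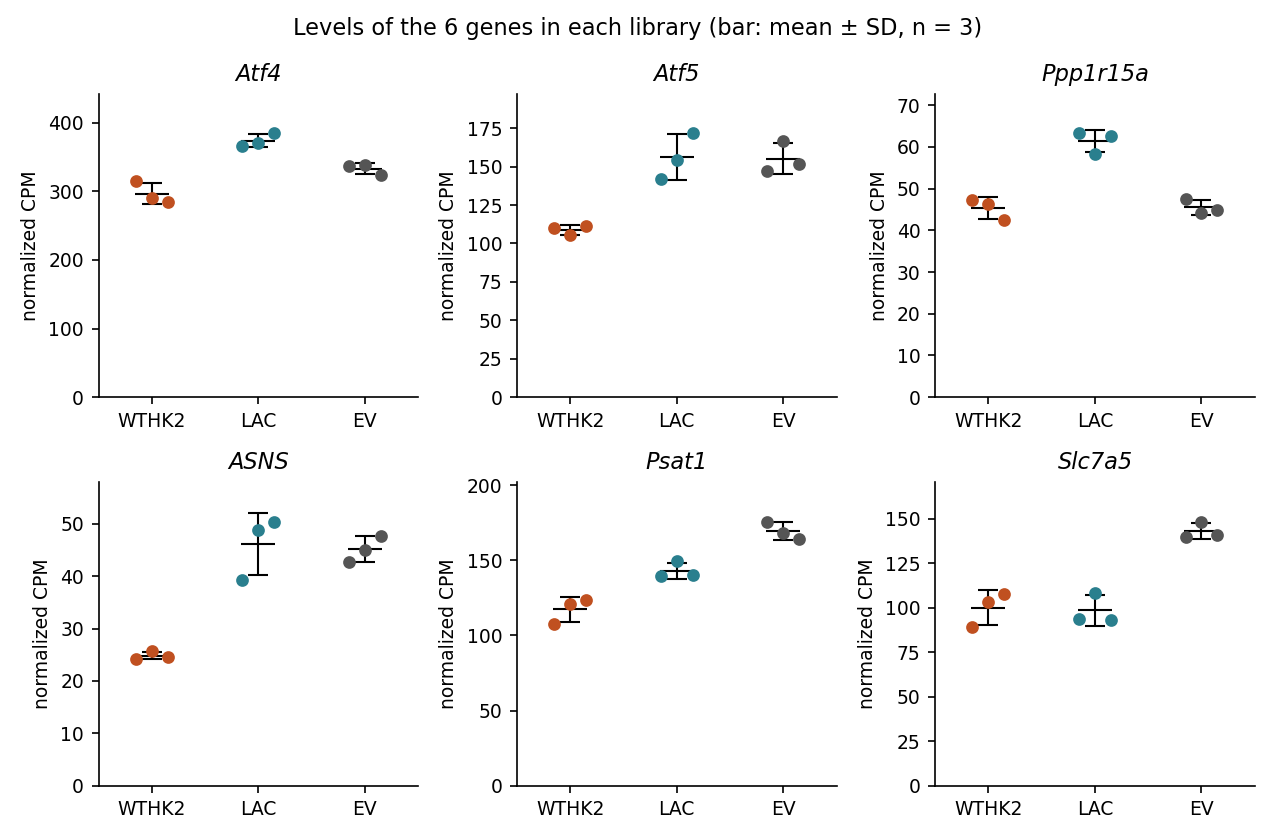
Normalized CPM (vertical axes, from 0) of the 6 genes in each library, by group, with the mean and SD of 3 libraries as bars. ASNS sits at 24.3 to 25.65 CPM in WTHK2, apart from 39.3 to 50.4 in LAC and 42.75 to 47.75 in EV, and Ppp1r15a is apart from the other groups in LAC, at 58.4 to 63.3 CPM.

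Atf4, the central regulator, stood at 314, 290 and 285 CPM in the WTHK2 libraries, at 365.5, 371 and 385 CPM in the LAC libraries, and at 337, 337.5 and 324 CPM in the EV libraries. The 3 groups did not overlap, and the order was WTHK2 lowest and LAC highest. The group means were 296 ± 15.7 CPM in WTHK2, 374 ± 9.88 in LAC and 333 ± 7.68 in EV. On the log2 scale of CPM plus 1, on which all differences below are given, Atf4 differed by -0.17 between WTHK2 and EV (SE 0.040), by 0.17 between LAC and EV (SE 0.040), and by -0.33 between WTHK2 and LAC (SE 0.040). The mean level was 89.0% of EV in WTHK2 and 112.2% of EV in LAC. Relative to the whole table, 21.6% of genes were further down than Atf4 in WTHK2 against EV, while between WTHK2 and LAC only 0.829% were.

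Atf5, a close relative of ATF4 and itself a target of it, separated only the WTHK2 libraries. Its levels were 110, 105 and 111 CPM in WTHK2, 142, 154.5 and 172 in LAC, and 147, 166 and 152 in EV. The WTHK2 values lie below all others, and the EV values fall within the range of the LAC values. Mean levels were 109 ± 3.20 CPM in WTHK2, 156 ± 15.03 in LAC and 155 ± 10.1 in EV. The log2 difference was -0.51 between WTHK2 and EV (SE 0.058), with WTHK2 at 70.4% of the EV level. It was 0.007 between LAC and EV (SE 0.058) and -0.51 between WTHK2 and LAC (SE 0.058).

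Ppp1r15a codes for GADD34, the inducible subunit that directs protein phosphatase 1 to eIF2 and so ends the stress response. It stood at 47.2, 46.3 and 42.4 CPM in WTHK2, 63.3, 58.4 and 62.6 in LAC, and 47.6, 44.1 and 44.9 in EV. Here the LAC libraries were apart, and the WTHK2 and EV libraries overlapped. Mean levels were 45.3 ± 2.57 CPM in WTHK2, 61.45 ± 2.67 in LAC and 45.5 ± 1.83 in EV. The difference from EV was 0.42 in LAC (SE 0.062), with LAC at 134.2% of the EV level, and -0.008 in WTHK2 (SE 0.062). In LAC against EV it ranked 33 from the top of the 6753 genes. Between WTHK2 and LAC it differed by -0.43 (SE 0.062).

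ASNS, the enzyme that makes asparagine from aspartate and glutamine, showed the largest difference of the 6. Its levels were 24.3, 25.65 and 24.6 CPM in WTHK2, 39.3, 48.7 and 50.4 in LAC, and 42.75, 45.1 and 47.75 in EV. The highest WTHK2 value is below the lowest of either other group, and the LAC values spread on both sides of the EV values. The means were 24.85 ± 0.716 CPM in WTHK2, 46.2 ± 5.97 in LAC and 45.2 ± 2.502 in EV. The log2 difference of -0.84 between WTHK2 and EV (SE 0.081) put WTHK2 at 56.0% of the EV level, rank 8 from the bottom of the table. Between WTHK2 and LAC it was -0.86 (SE 0.081), rank 2 from the bottom. The LAC difference from EV was 0.02 (SE 0.081). It was 0.13 without LAC replicate 1, -0.02 without LAC replicate 2 and -0.04 without LAC replicate 3. In LAC replicate 1, ASNS was lowest and mitochondrially encoded transcripts were highest of the LAC libraries. A link between these was not tested.

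Psat1, the aminotransferase of the serine synthesis pathway, was graded over the groups. Its levels were 107.5, 121 and 123 CPM in WTHK2, 139.6, 149 and 140.5 in LAC, and 176, 168 and 164 in EV. The 3 groups did not overlap, and WTHK2 was lowest and EV highest. Mean levels were 117 ± 8.52 CPM in WTHK2, 143 ± 5.35 in LAC and 169 ± 5.795 in EV. Against EV the log2 difference was -0.53 in WTHK2 (SE 0.051), or 69.3% of the EV level, and -0.24 in LAC (SE 0.051), or 84.6%. Between WTHK2 and LAC it was -0.29 (SE 0.051).

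Slc7a5 codes for LAT1, the importer of leucine and other large neutral amino acids, and was lower than in EV in both WTHK2 and LAC. Its levels were 89.25, 103 and 108 CPM in WTHK2, 93.8, 108 and 93.3 in LAC, and 140.0, 148 and 141 in EV. WTHK2 and LAC overlapped, and both lay below EV. The means were 100.1 ± 9.68 CPM in WTHK2, 98.5 ± 8.57 in LAC and 143 ± 4.599 in EV. The differences from EV were -0.52 in WTHK2 (SE 0.064), or 70.0% of the EV level, and -0.54 in LAC (SE 0.064), or 68.9%, while WTHK2 and LAC differed by 0.02 (SE 0.064).

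**Figure D2:**
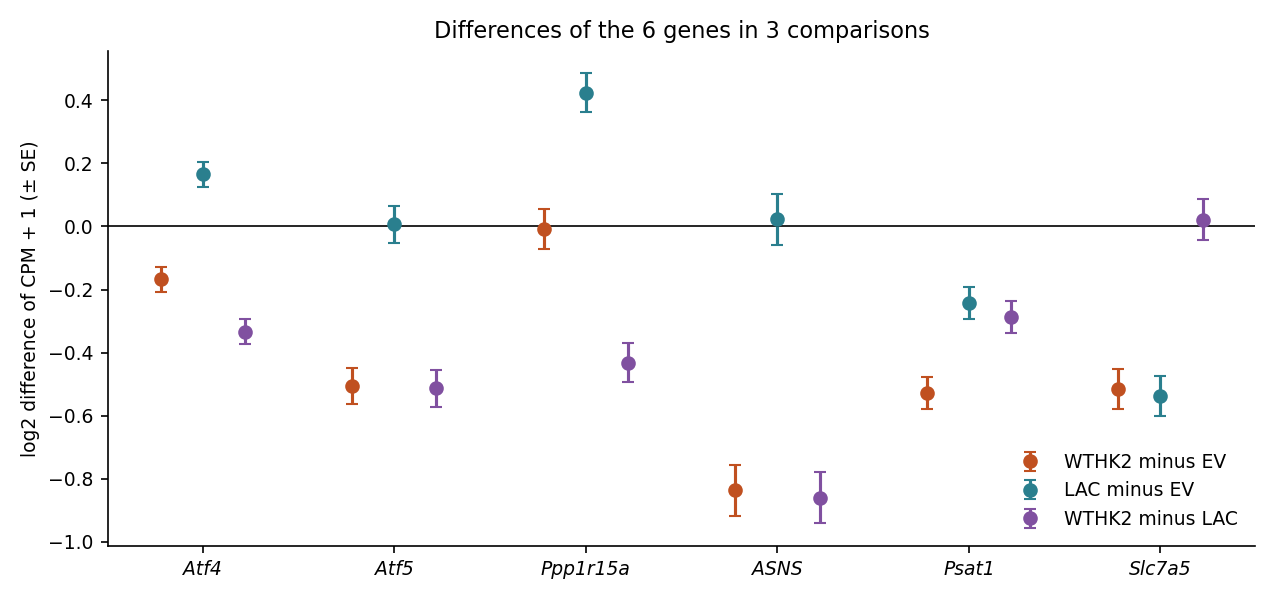
Log2 difference of CPM plus 1 (vertical axis, points with SE bars from the fit of all 9 libraries) for each gene in each of the 3 comparisons. ASNS reaches -0.84 in WTHK2 against EV and 0.02 in LAC against EV, whereas Slc7a5 is at -0.52 and -0.54.

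Counted together, 5 of the 6 genes had WTHK2 values below all EV values and 0 above, where 30.5% of all genes were below and 26.6% above in that comparison. In LAC against EV, 2 lay above (Atf4 and Ppp1r15a) and 2 below (Psat1 and Slc7a5), where 27.0% of all genes lay above and 30.8% below. In WTHK2 against LAC, 5 lay below and 0 above, where 14.5% of all genes lay below and 14.5% above. Since these comparisons chose the genes, nothing is read from the counts. The median of the 6 was -0.51 in WTHK2 against EV, 0.015 in LAC against EV and -0.38 in WTHK2 against LAC, beside medians over all genes of -0.008, -0.004 and 0.004. Both comparisons with EV share the EV libraries. The 14 nearest listed neighbours of each gene in RefSeq gene order had median differences of -0.14 to 0.14 in WTHK2 against EV and of -0.10 to 0.165 in LAC against EV. For Ppp1r15a, whose LAC difference was 0.42, the neighbours' median was 0.165, and for Atf4, at 0.17, it was -0.10. In WTHK2 against LAC the neighbours' medians ran from -0.14 (Psat1) to 0.05 (Slc7a5), where Psat1 itself differed by -0.29. In WTHK2 against EV the median for Psat1's neighbours was also -0.14, beside -0.53 for Psat1. A link between neighbours and members was not tested.

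The genes whose log2 values ran closest to each of the 6 over the 9 libraries were found by Pearson's r, given as a description, since the libraries fall into 3 groups. Atf4 ran closest to Pabpc4 (r = 0.980), a poly(A)-binding protein, and Ccar1 (0.962) was also among its 3 closest. Pabpc4 averaged 346 ± 10.96 CPM in WTHK2, 387 ± 3.20 in LAC and 364 ± 7.72 in EV. For Atf5 the closest were Mybl2 (0.976), a cell cycle transcription factor, Gars (0.975), the glycyl-tRNA synthetase, and ASNS itself (0.971). ASNS ran closest to Atf5 (0.971), Sulf2 (0.967), an extracellular sulfatase, and Vldlr (0.964), a lipoprotein receptor and target of ATF4. Psat1 ran closest to Mre11a, a DNA repair nuclease (r = 0.995, with 53.3 ± 2.81 CPM in WTHK2, 59.4 ± 1.66 in LAC and 66.2 ± 1.86 in EV), Gmcl1 (0.990) and Ncapg2 (0.988), a condensin subunit. Slc7a5 ran closest to Trip12 (0.997), a ubiquitin ligase, Trip11 (0.993), a Golgi protein, and Cdk6 (0.991), a G1 kinase. Ppp1r15a ran closest to Fosl1 (0.979), an AP-1 subunit that averaged 391 ± 11.9 CPM in WTHK2, 466 ± 8.99 in LAC and 399 ± 8.28 in EV, and to Zpr1 (0.978) and Matn4 (0.973).

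The wider pathway was read from 7 lists of 140 other genes, none of them among the 6, of which 95 were in the table. The lists were chosen with earlier results of these data known. Their counts are therefore a description, and no independent test of the 6. In WTHK2 against EV, 37 of the 95 fell and 11 rose at an adjusted p under 0.05, or 38.95% and 11.6%, beside 25.4% and 21.0% of all genes. Their median log2 difference was -0.08, against -0.008 for all genes. In LAC against EV, 23 fell and 16 rose, or 24.2% and 16.8%, beside 27.1% and 22.4% of all genes, with a median of -0.008. In WTHK2 against LAC, 20 were called lower and 3 higher in WTHK2, or 21.05% and 3.16%, beside 7.76% and 8.37% of all genes, with a median of -0.06. The split in LAC against EV depended on scaling: 15 fell and 24 rose when all libraries were set to one median, and 16 fell and 19 rose with quantile normalization. Over all genes, those higher were 45.3% of the called ones in both comparisons with EV, but 57.4% in WTHK2 and 58.6% in LAC when all libraries were set to one median. Leaving out single libraries moved some of these counts by over 1.5 times. The rises in WTHK2 against EV were 7 without EV replicate 3, the rises in LAC 9 without EV replicate 1 and 10 without LAC replicate 3, and the falls in LAC 15 without EV replicate 1 or 2. Against LAC, 13 were lower in WTHK2 without WTHK2 replicate 2, and 1 was higher without WTHK2 replicate 3 or without LAC replicate 3. Small counts below are given with their genes, and genes so named beyond the rule stated in the methods were chosen after their values were seen.

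**Figure D3:**
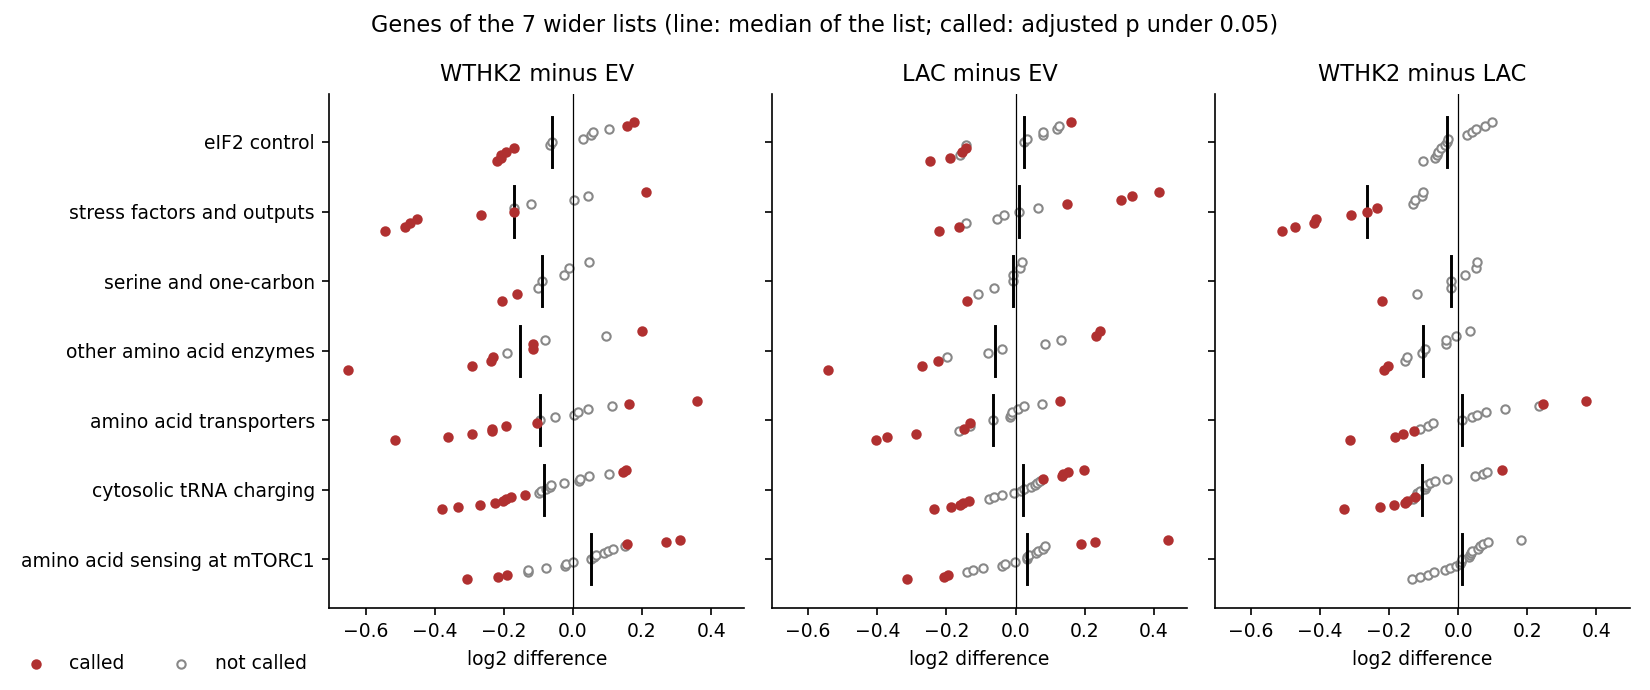
Log2 difference (horizontal axis) of each of the 95 genes of the 7 lists in the 3 comparisons, with called genes filled and the list's median as a line. The list of stress factors and outputs lies to the left of 0 in WTHK2 against LAC, with a median of -0.26 and 7 of 11 genes called lower. That is 63.6%, beside 7.76% of all genes called lower in that comparison. Among the 7, the call on Trib3 was lost in some runs that left out a single library.

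The list nearest to ATF4 itself, of stress-response factors and other known ATF4 targets, had 11 genes in the table. In WTHK2 against EV, 6 fell and 1 rose, with a median of -0.17. These are 54.55% and 9.09%, beside 25.4% and 21.0% of all genes. In LAC against EV, 2 fell and 4 rose, with a median of 0.01. These are 18.2% and 36.4%, beside 27.1% and 22.4%. Against LAC, 7 of 11 were called lower in WTHK2 and 0 higher, with a median of -0.26. These are 63.6% and 0%, beside 7.76% and 8.37%. Chac1, which degrades glutathione, averaged 23.7 ± 2.69 CPM in WTHK2, 34.1 ± 2.75 in LAC and 34.8 ± 1.52 in EV, and fell by 0.54 on the log2 scale in WTHK2 against EV (SE 0.085, adjusted p = 3.83e-05). Trib3, a pseudokinase that feeds back on ATF4, averaged 28.01 ± 0.751 CPM in WTHK2, 33.95 ± 3.53 in LAC and 39.65 ± 2.38 in EV. It fell by 0.485 in WTHK2 (SE 0.078, adjusted p = 5.61e-05) and by 0.22 in LAC (SE 0.078, adjusted p = 0.0238). The LAC call on Trib3 was lost at one median for all libraries (adjusted p = 0.0556), with quantile normalization (0.053), and without EV replicate 1 (0.0841), EV replicate 2 (0.0985), LAC replicate 1 (0.17) or both first WTHK2 and LAC replicates (0.151). Trib3 was also called lower in WTHK2 than in LAC (-0.26, SE 0.078, adjusted p = 0.0242). That call was lost without LAC replicate 2 (adjusted p = 0.0677), LAC replicate 3 (0.132), WTHK2 replicate 2 (0.0531) or WTHK2 replicate 3 (0.0926). Vldlr fell to 35.6 ± 1.57 CPM in WTHK2, against 49.7 ± 0.718 in EV, a log2 difference of -0.47 (SE 0.062, adjusted p = 5.52e-06). Stc2, a secreted glycoprotein induced by stress, fell to 36.45 ± 1.41 CPM in WTHK2, against 50.2 ± 1.72 in EV, a log2 difference of -0.45 (SE 0.073, adjusted p = 5.70e-05). In LAC against EV, Vldlr, at 47.8 ± 1.89 CPM, differed by -0.055 (adjusted p = 0.478), Chac1 by -0.03 (adjusted p = 0.773) and Stc2 by -0.14 (adjusted p = 0.11), and none of the 3 passed. Stc2 passed without LAC replicate 1, with a log2 difference of -0.215 (adjusted p = 0.0256, or 0.0151 with WTHK2 replicate 1 left out too). The other falls in WTHK2 were those of Herpud1 and of Sqstm1, which was also the second fall in LAC.

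The 4 genes of this list that rose in LAC were picked out after their values were seen. Ddit3, which codes for CHOP, the partner transcription factor of ATF4 that drives Ppp1r15a, averaged 27.0 ± 1.44 CPM in WTHK2, 38.0 ± 3.11 in LAC and 30.5 ± 1.44 in EV. It rose by 0.30 in LAC against EV (SE 0.076, adjusted p = 0.00261), and stood at -0.17 in WTHK2 against EV (SE 0.076, adjusted p = 0.0720, but 0.0472 with no variance trend and 0.0467 without both first WTHK2 and LAC replicates). It was lower in WTHK2 than in LAC, with a log2 difference of -0.47 (SE 0.076, adjusted p = 1.78e-04). Nupr1, a small stress-induced chromatin protein, averaged 41.95 ± 2.23 CPM in WTHK2, 56.2 ± 5.80 in LAC and 42 ± 5.45 in EV, and rose by 0.41 in LAC (SE 0.084, adjusted p = 4.61e-04). Cebpb, a transcription factor that pairs with ATF4, rose by 0.34 in LAC (SE 0.067, adjusted p = 3.64e-04) and by 0.21 in WTHK2 (SE 0.067, adjusted p = 0.0132). It is the single rise of the list in WTHK2, its WTHK2 and EV values overlapped, and its adjusted p was 0.0847 without EV replicate 1, 0.0535 without WTHK2 replicate 1 and 0.0818 without WTHK2 replicate 3. Eif4ebp1, a repressor of cap-dependent translation, rose by 0.15 in LAC (SE 0.042, adjusted p = 0.00574).

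Upstream of ATF4, 13 listed genes control eIF2. In WTHK2 against EV 5 fell and 2 rose, or 38.5% and 15.4%, beside 25.4% and 21.0% of all genes. In LAC against EV 4 fell and 1 rose, or 30.8% and 7.69%, beside 27.1% and 22.4%. Against LAC, 0 of 13 were called in WTHK2 by limma and 0 by limma-voom. Of all genes, limma called 7.76% lower and 8.37% higher there. Of the 13, 1, Ppp1ca, had an unadjusted p under 0.05. The falls against EV included sensors of the response. Gcn1, the ribosome-bound activator of the amino acid sensor GCN2, averaged 240 ± 4.43 CPM in WTHK2, 245 ± 3.73 in LAC and 279 ± 6.48 in EV. It fell by 0.22 in WTHK2 (SE 0.036, adjusted p = 6.86e-05) and by 0.19 in LAC (SE 0.036, adjusted p = 2.70e-04). Eif2ak4, which codes for GCN2, fell by 0.19 in WTHK2 (SE 0.060, adjusted p = 0.0121) and by 0.16 in LAC (SE 0.060, adjusted p = 0.0360). Eif2ak1, the kinase HRI, which senses heme, fell by 0.21 in WTHK2 (SE 0.053, adjusted p = 0.00362) and by 0.25 in LAC (SE 0.053, adjusted p = 7.92e-04). Ppp1r15b, the constitutive counterpart of Ppp1r15a, fell by 0.17 in WTHK2 (SE 0.053, adjusted p = 0.0123) and by 0.14 in LAC (SE 0.053, adjusted p = 0.0301), whereas Ppp1r15a itself was higher in LAC than in EV. In LAC, the calls on Eif2ak4 and Ppp1r15b were lost at one median for all libraries (adjusted p = 0.111 and 0.103), with quantile normalization (0.0965 and 0.0505), and without EV replicate 1 (0.13 and 0.132), EV replicate 2 (0.117 and 0.102), LAC replicate 1 (0.144 and 0.107), LAC replicate 3 (0.0568 and 0.107) or both first WTHK2 and LAC replicates (0.122 and 0.0746). In WTHK2 both were lost without EV replicate 1 (0.0594 and 0.0701) or EV replicate 2 (0.0526 and 0.0532), and that on Eif2ak4 also without WTHK2 replicate 3 (0.0558). Eif2ak3, the endoplasmic reticulum kinase PERK, was the fifth fall in WTHK2. The rises were of subunits of eIF2B, the exchange factor that phosphorylated eIF2 inhibits: Eif2b1 and Eif2b2 in WTHK2, and Eif2b4 in LAC. GCN1 is itself a very long protein, and the share of the long-protein trend in its fall was not tested.

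Around Psat1, 7 genes of serine and one-carbon metabolism were in the table. In WTHK2 against EV 2 fell and 0 rose, or 28.6% and 0%, beside 25.4% and 21.0% of all genes. In LAC 1 fell and 0 rose, or 14.3% and 0%, beside 27.1% and 22.4%. Mthfd2, the mitochondrial folate enzyme and a known ATF4 target, averaged 275 ± 8.38 CPM in WTHK2, 320.5 ± 8.64 in LAC and 317 ± 3.54 in EV. It fell by 0.21 in WTHK2 against EV (SE 0.036, adjusted p = 1.42e-04), stood at 0.01 in LAC (adjusted p = 0.773), and was the single gene of the list called between WTHK2 and LAC (-0.22, SE 0.036, adjusted p = 2.43e-04). In that last comparison 14.3% of the list were lower and 0% higher, beside 7.76% and 8.37% of all genes. Mthfd1l fell by 0.16 in WTHK2 (SE 0.051, adjusted p = 0.0139) and by 0.14 in LAC (SE 0.051, adjusted p = 0.0286). Its call was lost in WTHK2 without EV replicate 2 (adjusted p = 0.0833). In LAC it was lost at one median for all libraries (0.102), with quantile normalization (0.0772), with no variance trend (0.0715), and without EV replicate 1 (0.0555), EV replicate 2 (0.141), LAC replicate 1 (0.172), LAC replicate 3 (0.0977) or both first WTHK2 and LAC replicates (0.118). Psph, which follows Psat1 in serine synthesis, did not pass in WTHK2 (-0.10, SE 0.057, adjusted p = 0.153) or in LAC (0.02, SE 0.057, adjusted p = 0.807).

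Of 10 other enzymes of amino acid metabolism, 6 fell and 1 rose in WTHK2 against EV, and 3 fell and 2 rose in LAC against EV. The shares in WTHK2 were 60% and 10%, beside 25.4% and 21.0% of all genes. Those in LAC were 30% and 20%, beside 27.1% and 22.4%. Bcat1, the cytosolic branched-chain aminotransferase, averaged 22.4 ± 3.47 CPM in WTHK2, 24.1 ± 2.51 in LAC and 35.6 ± 3.89 in EV. It fell by 0.65 in WTHK2 (SE 0.105, adjusted p = 5.70e-05) and by 0.54 in LAC (SE 0.105, adjusted p = 2.96e-04). Glud1, glutamate dehydrogenase, fell by 0.24 in WTHK2 (SE 0.053, adjusted p = 0.00122) and by 0.27 in LAC (SE 0.053, adjusted p = 3.60e-04). Pycrl was among the rises in LAC, and the transaminase genes Got1, Got2 and Gpt2 were among the falls in WTHK2. The adjusted p in WTHK2 against EV was 0.0392 for Got1, 0.0355 for Got2 and 0.00645 for Gpt2. Got1 and Pck2 were lower in WTHK2 than in LAC, and 0 of the list were higher. These are 20% and 0%, beside 7.76% of all genes lower and 8.37% higher.

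Beside Slc7a5, 15 amino acid transporters were in the table. Of these, 7 fell and 2 rose in WTHK2 against EV, or 46.7% and 13.3%, beside 25.4% and 21.0% of all genes. In LAC against EV, 5 fell and 1 rose, or 33.3% and 6.67%, beside 27.1% and 22.4%. Slc1a4, a carrier of serine, alanine and threonine, averaged 36.6 ± 3.21 CPM in WTHK2, 39.5 ± 2.39 in LAC and 52.7 ± 3.40 in EV. It fell by 0.515 in WTHK2 (SE 0.073, adjusted p = 1.41e-05) and fell by 0.405 in LAC (SE 0.073, adjusted p = 1.58e-04). Slc7a1, which imports arginine and lysine, fell by 0.29 in WTHK2 (SE 0.046, adjusted p = 4.54e-05) and by 0.13 in LAC (SE 0.046, adjusted p = 0.0227). That LAC call on Slc7a1 was lost at one median for all libraries (adjusted p = 0.108), with quantile normalization (0.0574), and without EV replicate 1 (0.0737), EV replicate 2 (0.0685) or LAC replicate 3 (0.137). Slc36a4, a proton-coupled carrier, fell by 0.36 in WTHK2 (SE 0.085, adjusted p = 0.00177) and by 0.37 in LAC (SE 0.085, adjusted p = 0.00128). Slc43a2, another carrier of large neutral amino acids, rose to 49.4 ± 2.04 CPM in WTHK2, against 38.4 ± 2.98 in EV, by 0.36 on the log2 scale (SE 0.071, adjusted p = 4.04e-04). The LAC level of Slc43a2 was 38.03 ± 2.41 CPM (-0.01 against EV, adjusted p = 0.895), and it was higher in WTHK2 than in LAC by 0.37 (SE 0.071, adjusted p = 9.88e-04). The single rise in LAC was that of Slc3a2, the chain that forms a dimer with LAT1, at 255 ± 5.85 CPM in LAC against 233 ± 1.79 in EV, by 0.13 (SE 0.038, adjusted p = 0.00782). In WTHK2, Slc3a2 stood at 233 ± 8.14 CPM (0.002 against EV, adjusted p = 0.974), while Slc7a5 was lower than EV in both groups. The other rise in WTHK2 was that of Slc25a22, and the other falls in LAC were those of Slc38a2 and Slc36a1. Carriers lower in WTHK2 than in LAC were Slc1a3, Slc1a5, Slc7a1 and Slc3a2, and those higher were Slc43a2 and Slc25a13. These are 26.7% and 13.3%, beside 7.76% of all genes lower and 8.37% higher. The call on Slc7a1 against LAC was lost with only the 6 libraries of the comparison (adjusted p = 0.0515), with no variance trend (0.0505), and without LAC replicate 1 (0.102), WTHK2 replicate 2 (0.0758) or both first WTHK2 and LAC replicates (0.128). The call on Slc3a2 against LAC was lost with only the 6 libraries (adjusted p = 0.0618), with no variance trend (0.0812), and without LAC replicate 3 (0.103), WTHK2 replicate 2 (0.12) or WTHK2 replicate 3 (0.0728).

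Genes that charge tRNAs in the cytosol, several of them known ATF4 targets, included both rises and falls. Of 20 listed genes, 8 fell and 2 rose in WTHK2 against EV, or 40% and 10%, beside 25.4% and 21.0% of all genes. In LAC against EV, 5 fell and 5 rose, or 25% each, beside 27.1% and 22.4%. Against LAC, 6 were lower and 1 higher in WTHK2, or 30% and 5%, beside 7.76% and 8.37%. Iars, the isoleucine enzyme, averaged 426 ± 17.5 CPM in WTHK2, 499 ± 22.5 in LAC and 554 ± 11.6 in EV. It fell by 0.38 in WTHK2 (SE 0.039, adjusted p = 2.90e-07) and by 0.15 in LAC (SE 0.039, adjusted p = 0.00309). Xpot, which exports tRNAs from the nucleus, averaged 272 ± 0.669 CPM in WTHK2, 291 ± 4.65 in LAC and 343 ± 3.23 in EV, and fell by 0.33 in WTHK2 (SE 0.034, adjusted p = 2.55e-07) and by 0.24 in LAC (SE 0.034, adjusted p = 1.59e-05). AARS, the alanine enzyme, fell by 0.22 in WTHK2 (SE 0.033, adjusted p = 2.28e-05), and its LAC difference was -0.04 (SE 0.033, adjusted p = 0.346, but 0.0186 with quantile normalization). EPRS, the glutamate and proline enzyme, fell by 0.27 in WTHK2 (SE 0.041, adjusted p = 3.00e-05) and by 0.19 in LAC (SE 0.041, adjusted p = 9.20e-04). The rises were of Qars and RARS in WTHK2, and of Cars, Farsa, Hars, KARS and Vars in LAC. The other falls in LAC were of Wars and Yars. Nearest the threshold in LAC were KARS (0.08, adjusted p = 0.0480), Yars (-0.13, 0.0373) and Hars (0.15, 0.0338). The LAC and EV values of Wars overlapped. Qars was the 1 gene higher in WTHK2 than in LAC (adjusted p = 0.0466).

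Of 19 listed genes of amino acid sensing at mTORC1, the growth kinase complex that leucine activates at the lysosome, 3 fell and 3 rose in WTHK2 against EV, or 15.8% each, beside 25.4% and 21.0% of all genes. The LAC libraries had 3 falls and 3 rises against EV, or 15.8% each, beside 27.1% and 22.4% of all genes. Against LAC, 0 were called in WTHK2 by limma and 0 by limma-voom. Of all genes, limma called 7.76% lower and 8.37% higher there. Of the 19, 2, Lamtor3 and Bmt2, had an unadjusted p under 0.05. Mtor, the kinase, averaged 121 ± 1.00 CPM in WTHK2, 121 ± 2.90 in LAC and 151 ± 5.56 in EV, and fell by 0.31 in WTHK2 (SE 0.043, adjusted p = 1.18e-05) and by 0.31 in LAC (SE 0.043, adjusted p = 1e-05). Rptor, its scaffold, fell by 0.22 in WTHK2 (SE 0.048, adjusted p = 0.00108) and by 0.19 in LAC (SE 0.048, adjusted p = 0.00240). Nprl2, a subunit of the GATOR1 complex that restrains mTORC1 when amino acids are short, rose to 33.47 ± 2.69 CPM in WTHK2 and 36.8 ± 2.53 in LAC, against 26.8 ± 1.55 in EV. The rise was 0.31 in WTHK2 (SE 0.078, adjusted p = 0.00298) and 0.44 in LAC (SE 0.078, adjusted p = 1.24e-04). Sec13, of the opposing GATOR2 complex and also of vesicle coats, rose by 0.16 in WTHK2 (SE 0.044, adjusted p = 0.00604), and its LAC difference was 0.09 (SE 0.044, adjusted p = 0.107, but 0.0226 at one median for all libraries and 0.0475 without both first WTHK2 and LAC replicates). The remaining calls were Lamtor4 up in both, Lamtor2 up in LAC, Sesn1 down in WTHK2 and Bmt2 down in LAC. Sesn1 was near the threshold (adjusted p = 0.0414), and the LAC and EV values of Lamtor2 overlapped. MTOR is a very long protein, and the share of that trend in its fall was not tested.

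**Figure D4:**
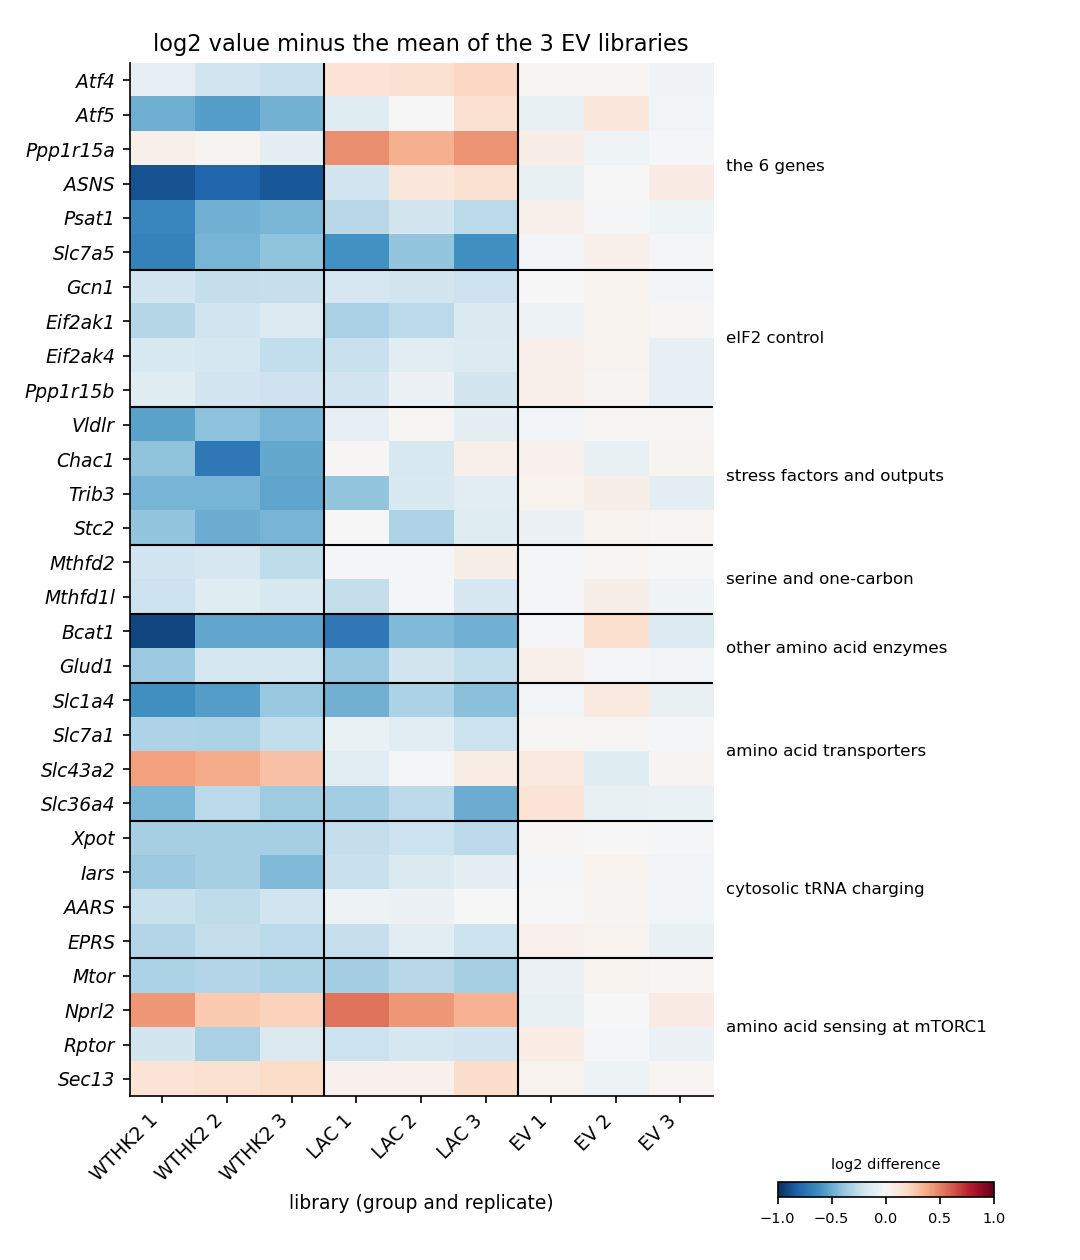
Log2 value minus the mean of the 3 EV libraries (colour scale, blue lower and red higher) for the 6 genes and the genes of the 7 lists described in the text (rows) in each library (columns). Chac1, Vldlr and Mthfd2 share with ASNS and Atf5 a low value in WTHK2 and a level near EV in LAC, while Bcat1, Slc1a4 and Mtor share with Slc7a5 low values in both.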

How the data were processed

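The 9 libraries were prepared from total RNA with an mRNA library kit, per the labels' protocols. Per the submitters' processing notes, the tools included STAR 2.7.0a, featureCounts 2.0.1, edgeR 3.8, FastQC 0.11.8 and cutadapt 1.18, with no order or role given. The genome build is not given in the sources used here. Values are the authors' deposited normalized CPM of 6753 genes, which add up to 80.3% to 81.4% of each effective library. The lowest gene mean was 20.4 CPM, so genes of low level are not in the table used here. Every value was a whole number of reads, within 0.01, of its library's step.

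CPM values were tested with limma 3.58.1 (R 4.3.3) on log2(CPM + 1), which slightly understates changes of low genes, over all 9 libraries with a variance trend, two-sided, with Benjamini-Hochberg adjustment over all 6753 genes. A gene was called at an adjusted p under 0.05. A minimum mean of 1 CPM removed 0 genes. The fit was checked on simulated data for WTHK2 against EV, with 73, 65 and 62 of 6753 genes changed 1.2-fold, 1.5-fold and 2-fold. It called 84.9%, 100% and 100% of them with the right sign. Of the calls, 7.35% were false, at the adjusted p threshold of 0.05. Changes under 1.2-fold were not simulated, and far fewer genes were changed than the 3131 called in the data.

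The 6 genes and the 7 lists were chosen with earlier results of these data known. Named list genes were up to 4 per list with the smallest adjusted p against EV, and the 3 genes most like each of the 6 were taken by Pearson's r. Gene order came from RefSeq (CriGri-PICRH-1.0), in which 6143 of 6753 symbols matched (90.97%). Promoters and protein sequences were not analysed here. A few genes that these rules name are not reported here.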

Additional observations from a re-analysis of the deposited data

How the results depend on the processing

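All non-overlapping differences of the 6 genes kept their sign in every alternative run: other pseudocounts (0.25 and 4), a minimum mean of 50 CPM (which drops ASNS), one median for all libraries, quantile normalization, pairwise fits, no variance trend, the replicate block, each library left out, both first WTHK2 and LAC replicates left out, and limma-voom on recovered reads. Slc7a5 in WTHK2 against EV was -0.44 without WTHK2 replicate 1. The planned edgeR test was not run, since the table holds CPM, and limma-voom was added after seeing the data. It called 3191 genes in WTHK2 against EV, 3353 in LAC against EV and 1097 in WTHK2 against LAC, beside 3131, 3341 and 1089. Of 1887 alternative values for 96 results of list genes, 56 lost a call, 13 gained one and 0 reversed. They covered the genes named by the rule in the methods, and Ddit3, Nupr1, Cebpb, Eif4ebp1, Slc3a2 and Psph. Calls on the other list genes named in the text were not followed gene by gene in these runs. Leaving out single libraries gave 7 to 13 list genes higher in WTHK2 against EV, 9 to 17 higher and 15 to 25 lower in LAC against EV, and 1 to 3 higher and 13 to 21 lower in WTHK2 against LAC. For all genes of that last comparison it gave 662 calls (without WTHK2 replicate 3) to 1279, with 701 without LAC replicate 3. At one median for all libraries, 15 list genes were lower in LAC against EV. Deviations of same-numbered replicates 1, 2 and 3 correlated at r = 0.076, 0.141 and -0.006 between WTHK2 and EV, 0.017, 0.207 and 0.030 between LAC and EV, and 0.437, 0.251 and 0.073 between WTHK2 and LAC. In each comparison at least 1 pair was under 0.1, so the numbers were not taken to pair the samples. However, the first 2 pairs of WTHK2 with LAC were the highest of all. This rule cannot show that WTHK2 and LAC share no replicate effect. WTHK2 replicate 3 correlated best with LAC replicate 2 (0.186). With the replicate block, 3433, 3609 and 1414 genes were called in the 3 comparisons, and 5 list genes were higher in WTHK2 against LAC.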
